A study of Mus musculus with 6 samples.

Results

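Accessible chromatin was examined over the mouse gene Gata3 (ENSMUSG00000015619) and its flanks, including the region about 280 kb downstream of the gene that is known as a T-cell enhancer. The gene lies on the minus strand of chromosome 2 in the mm9 build (chr2:9778705-9811661), and the window reached 500 kb beyond either end (chr2:9278705-10311661, 1.03 Mb). A peak, an interval in which the authors found reads to be dense, was a member when its centre lay in this window. This held for 28 of the 32527 peaks in the deposited list. The members just inside the window lay 494.9 kb beyond the 3′ end and 482.7 kb beyond the 5′ end of the gene, and the nearest peaks outside it lay at 740.1 and 651.9 kb.

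The peaks came from ATAC-Seq, in which a transposase cuts and tags DNA that is not packed by nucleosomes. The cells were Beko, a single mouse leukemia line of pre-T (progenitor T) cells grown in culture. In these cells Notch signaling is constitutively active unless it is blocked. Of the 6 libraries, 3 came from cells given the solvent DMSO for 24 h and 3 from cells given the γ-secretase inhibitor (GSI) DAPT for 24 h, which blocks the release of the Notch intracellular domain, the partner of the DNA-binding protein RBPJ. The dose of DAPT is 10 mg/ml in the labels but in μg/ml in the methods, so that its unit is uncertain. The study asked how accessibility relates to Notch and RBPJ, but the list merges the peaks of all 6 libraries and holds no height, depth or treatment for a peak. Thus, every value below describes position, width or sequence, no value has an error between libraries, and GSI was not compared with DMSO here.

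GATA3 is a zinc-finger transcription factor that binds words around the letters GATA and is required for the first steps of T-cell development, for the CD4 lineage and for type 2 helper T cells. Its gene is transcribed from alternative first exons, and in T cells its expression depends on regulatory DNA far beyond its 3′ end, in a stretch with few other genes. Notch, through RBPJ, is among the signals that act on Gata3. In accessible DNA of T cells, words bound by RUNX, ETS, E-protein, TCF1 and MYB factors are common, and CpG-rich DNA marks many start sites.

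Sequences are shown for the intervals on which the description turns: a far downstream peak, the DNA just before the main start site, and peaks in which short words were dense. Each was read from the mm9 genome. Capitals mark words of the 10 groups that were searched (spelled out below), and where words touch or overlap the capitals run on. For each peak the leftmost 300 bases with most words were taken, so that these stretches are richer in words than a stretch chosen blindly. They are chr2:9515582-9515881 (far peak 1, the wider of the far downstream peaks), chr2:9364968-9365267 (the peak at 435.0 kb, which tied for most GATA words), chr2:9603240-9603539 (the peak at 196.7 kb, the only one between the gene and the far peaks beyond 100 kb), and chr2:9404802-9405101 (the peak at 395.3 kb, among the widest), all on the plus strand. The promoter sequence is chr2:9800228-9800477 on the minus strand, the 250 bases that precede the start of the transcript Gata3-001, and its letters equal those of the RefSeq promoter entry for Gata3.
far peak 1: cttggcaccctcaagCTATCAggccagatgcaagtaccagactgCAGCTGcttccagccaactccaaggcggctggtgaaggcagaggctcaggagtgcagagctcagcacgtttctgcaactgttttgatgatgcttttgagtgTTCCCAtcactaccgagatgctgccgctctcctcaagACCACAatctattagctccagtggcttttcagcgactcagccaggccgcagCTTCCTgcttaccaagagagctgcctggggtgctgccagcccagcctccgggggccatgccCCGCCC
peak at 435.0 kb: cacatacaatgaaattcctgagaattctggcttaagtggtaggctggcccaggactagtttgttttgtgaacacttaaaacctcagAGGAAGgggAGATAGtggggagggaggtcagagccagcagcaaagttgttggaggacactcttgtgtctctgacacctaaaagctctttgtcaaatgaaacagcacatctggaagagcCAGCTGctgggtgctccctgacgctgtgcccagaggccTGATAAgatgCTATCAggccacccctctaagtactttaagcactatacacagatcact
peak at 196.7 kb: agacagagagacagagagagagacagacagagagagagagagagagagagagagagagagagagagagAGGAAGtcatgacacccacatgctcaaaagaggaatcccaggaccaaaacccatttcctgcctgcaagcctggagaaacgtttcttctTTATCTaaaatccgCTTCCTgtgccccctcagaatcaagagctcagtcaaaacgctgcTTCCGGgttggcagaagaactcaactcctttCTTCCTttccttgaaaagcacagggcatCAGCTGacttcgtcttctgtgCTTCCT
peak at 395.3 kb: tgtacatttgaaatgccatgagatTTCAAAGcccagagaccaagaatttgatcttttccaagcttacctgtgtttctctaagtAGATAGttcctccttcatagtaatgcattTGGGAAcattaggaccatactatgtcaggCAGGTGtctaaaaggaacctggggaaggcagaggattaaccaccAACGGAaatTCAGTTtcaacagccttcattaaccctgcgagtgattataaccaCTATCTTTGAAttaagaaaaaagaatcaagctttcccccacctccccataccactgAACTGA
upstream of Gata3-001: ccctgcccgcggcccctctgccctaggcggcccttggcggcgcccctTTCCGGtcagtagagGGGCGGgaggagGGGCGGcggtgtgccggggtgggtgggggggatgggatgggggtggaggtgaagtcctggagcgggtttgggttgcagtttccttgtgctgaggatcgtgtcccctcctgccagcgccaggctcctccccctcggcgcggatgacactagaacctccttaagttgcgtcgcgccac

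The 28 peaks covered 17758 bp. Positions are given for the centre of a peak in kb from the start of Gata3-001, the 6-exon transcript that starts at position 9800227, with positive values downstream of the gene's start and negative values upstream of it. Of these peaks, 12 lay beyond the 3′ end, 5 in the gene body and 11 beyond the 5′ end. By annotation at their centre, 10 were intergenic, 5 lay in the gene body of Gata3, and 5 in introns of its neighbour Taf3. Widths ranged from 289 to 1104 bp with a median of 524 bp (95% confidence interval 415 to 826 bp), while the median of all peaks was 551 bp (546 to 556 bp). Thus, the interval of the locus included the median of the list.

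**Figure D1:**
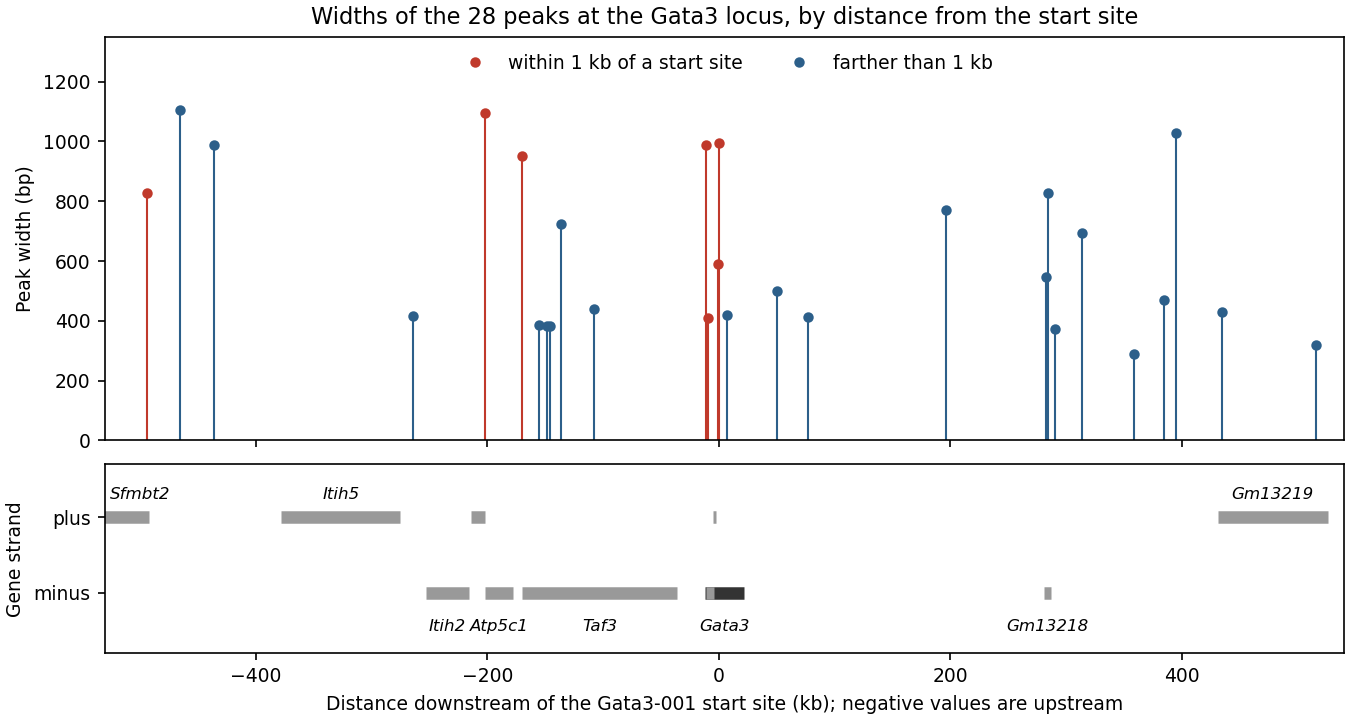
The upper panel plots the width of each of the 28 peaks (bp, y axis) against its distance downstream of the Gata3-001 start site (kb, x axis, negative values upstream), in red for peaks within 1 kb of an annotated start site. The lower panel shows protein-coding genes and the non-coding genes Gm13218 and Gm13219 by strand. All 12 peaks on the 3′ side are farther than 1 kb from a start site, whereas 7 peaks at or upstream of the gene lie at a start site.

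Promoter peaks, those within 1 kb of an annotated start site, numbered 7 of 28 (25%, Wilson 95% interval 12.7 to 43.4%), compared with 35.4% of all peaks. Another 7 lay more than 50 kb from any start site (25%, with the same interval), compared with 10.2% of the list. Of these, 6 lay on the 3′ side (50% of the peaks there) and 1 on the 5′ side (9.09%). CpG-rich DNA, with at least 50% GC and a CpG ratio (observed over expected) not under 0.6, was found in 5 peaks (17.9%), while 26.1% of all peaks had it. The median GC content was 49.6%, compared with 52.6% over the list. Such intervals cover counting error over peaks only.

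Within the 33 kb of the gene body the 5 peaks covered 10.3% of the DNA, at a density of 152 peaks per Mb. The 3′ side had 24 peaks per Mb and the 5′ side 22, compared with 14.8 on the whole of chromosome 2 and 12.9 on the autosomes. For the whole window of 28 peaks, 58.9% of the 22350 protein-coding genes had fewer peaks in a window made in the same way, 1.62% had as many, and the median gene had 22. Thus, the window of Gata3 stood near the middle of all genes, while its body did not: 96.8% of genes had fewer peaks in their body. The median gene had 0 there, and neither gene length nor the number of annotated starts was taken into account.

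The annotation holds 7 Gata3 transcripts with 6 different starts. Of their start sites, 9800227 (Gata3-001), 9809411 (Gata3-006) and 9811629 (Gata3-008) lay inside a peak. The start at 9811661, shared by Gata3-004 and Gata3-201, lay 6 bp beyond the edge of one. The starts of the short transcripts Gata3-002 and Gata3-003 were 2084 and 2673 bp from the nearest peak. Hence, the first exon of both 6-exon transcripts, Gata3-001 and Gata3-201, met a peak, and the internal starts did not.

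The peak over the start of Gata3-001 (chr2:9799699-9800694) was 996 bp wide, wider than 85% of all peaks, and contained the whole of exon 1 (chr2:9800032-9800227). It also overlaps Gm13256, a non-coding gene on the opposite strand. Its CpG ratio was 0.641 at a GC content of 55.1%. Next to it, separated by 245 bp, lay a second CpG-rich peak (chr2:9800940-9801529) of 590 bp with a CpG ratio of 0.613, at 713 bp from the start. In both peaks 3 copies of the SP word GGGCGG were found. The start-site peak held 1 GATA word, the only GATA word in the peaks of the gene body.

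At the distal start, 11434 bp upstream of Gata3-001, 2 peaks lay 998 bp apart. The wider (chr2:9810668-9811655, 988 bp) reached into the first exon of Gata3-004, Gata3-008 and Gata3-201. It also contained a start of 9230102O04Rik, annotated as a protein-coding gene on the same strand. Its CpG ratio was 0.577 at a GC content of 56.2%, just under the threshold. It held 3 copies of TGGGAA, the core word of RBPJ that Ikaros proteins also bind. The narrower (chr2:9809260-9809669, 410 bp) contained the start of Gata3-006 and held 1 ETS and 1 MYB word. Thus, the widest peaks of the gene marked its main start sites, with a narrower peak beside each.

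The remaining peak of the gene body was intronic (chr2:9792795-9793215, 421 bp) and lay 7.2 kb downstream of the Gata3-001 start, between exon 3 (chr2:9796016-9796552) and exon 4 (chr2:9790388-9790533). It held a pair of ETS words and no other word of the 10 groups. No peak lay between exon 4 and the 3′ end of the gene. The protein-coding gene 4930412O13Rik, inside the Gata3 body on the plus strand, had no peak in its body or within 1 kb of its start.

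**Figure D2:**
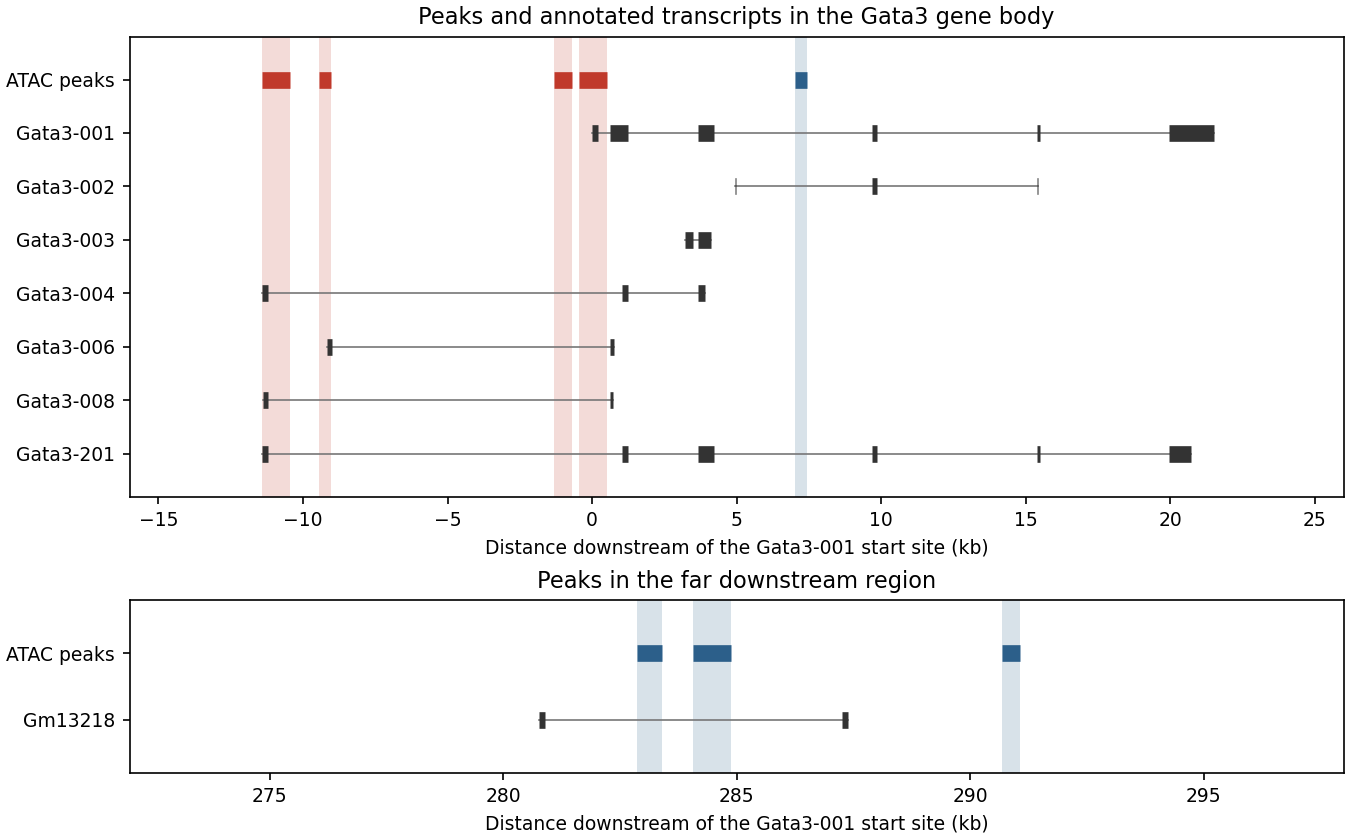
The upper panel places the 5 peaks of the gene body (coloured bars and shading, red within 1 kb of a start site) over the exons (dark boxes) of the 7 annotated Gata3 transcripts, and the lower panel places the far downstream peaks over the 2 exons of Gm13218. The x axes give the distance downstream of the Gata3-001 start site in kb. In the gene, 4 of 5 peaks lie within 1 kb of a start site and 3 of these meet a first exon, and 2 of the 3 far peaks shown lie inside the intron of Gm13218.

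In the far downstream region, taken as 260 to 300 kb from the annotated 5′ end of the gene, 2 peaks were found. Far peak 1 (chr2:9515344-9516170) was 827 bp wide and lay 295.9 kb from the 5′ end, and far peak 2 (chr2:9516819-9517365) was 547 bp wide and lay 294.6 kb from it, both close to the edge of the region. From the Gata3-001 start they lay at 284.5 and 283.1 kb. They were 648 bp apart and together spanned 2022 bp. Far peak 1 was wider than 74.4% of all peaks and far peak 2 wider than 49.5%. Both lay in the single intron of Gm13218 (chr2:9512846-9519470), a non-coding gene on the minus strand, 3300 and 2105 bp from its start, which itself had no peak. Toward Gata3 the next peak was 85.8 kb away, and on the other side a narrow peak of 374 bp (chr2:9509170-9509543) followed after 5.8 kb. That peak lay 302.3 kb from the 5′ end, just outside the region, but at 290.9 kb from the Gata3-001 start, from which the same range would hold 3 peaks.

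The far peaks differed in their words. Far peak 1 held 9 words, or 10.9 per kb, compared with a median of 10.1 per kb over all peaks, and they belonged to 7 groups. Around its centre stood TGGGAA (as TTCCCA), a RUNX word and an ETS word, at -30, 7 and 58 bp with positive values toward Gata3, and a GATA word and CAGCTG stood farther out. Far peak 2 held no GATA and no RUNX word. It held 3 MYB words within its central 200 bp, and 26 of all 32527 peaks (0.0799%) held 3 or more there. It also held 2 copies of TGGGAA, of which 1 shared a base with a MYB word. This count of MYB words was singled out after its value was seen. In whole peaks, TGGGAA occurred in 50% of the locus and in 42.5% of the list, so that its presence in both far peaks is a description only. Accessibility does not measure enhancer activity, and the words are letters in the DNA, not measured binding.

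Peaks this close together were found elsewhere at the locus too. When peaks within 5 kb were joined, the locus had 4 runs of 2 peaks and none of more: the far pair, both pairs at the Gata3 starts (spans of 1831 and 2396 bp), and a pair in an intron of Taf3 (2785 bp). In total 8 of 28 peaks (28.6%) had a neighbour within 5 kb, compared with 28.3% of the list. The median gap at the locus was 25.9 kb, and that of the list was 18.9 kb.

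Beyond the gene's 3′ end, the first peaks were narrow. They lay at 50.7 kb (500 bp) and 76.9 kb (413 bp), after which 119245 bp passed without a peak. The peak at 196.7 kb (chr2:9603124-9603894) was 771 bp wide. It held 5 ETS words, of which 4 stood in its central 200 bp, where 0.47% of all peaks had 4 or more. In the sequence above, a run of GA repeats borders the other ETS word, which lies outside the central 200 bp. The peak at 50.7 kb had the highest density of words in the locus, 18 per kb, more than in 94.6% of all peaks, with 3 copies of CAGGTG.

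Past the far pair lay 7 more peaks. The widest was at 395.3 kb (chr2:9404376-9405403, 1028 bp) and held 12 words, among them 3 MYB words and a GATA word that shared 2 bases with a TCF1/LEF1 word. The peaks at 435.0 kb (chr2:9364968-9365396, 429 bp) and 313.9 kb (chr2:9486009-9486703, 695 bp) each held 3 GATA words. Together with the peak at the start of Taf3 these were the most of the locus. In the central 200 bp both had 2 GATA words, as had a peak in an intron of Taf3 (chr2:9948336-9948719). Of all peaks, 3.03% had 2 or more there. The peaks at 435.0 and 313.9 kb were named for their GATA words, so this share is a description only. The narrowest peak of the locus (289 bp) lay at 358.4 kb.

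For each of the 12 peaks on the 3′ side, Gata3 was the protein-coding gene with the nearest start. The positions of the coding genes fixed this in advance for a flank of 500 kb. The stretch from Gata3 to the next protein-coding gene downstream, Celf2, was 2776 kb long, longer than that of 99.8% of 19551 genes, and 16 peaks lay in it. In total 99.8% of genes had fewer peaks in their stretch. Since the stretch was so long, its density was 5.76 peaks per Mb, less than on chromosome 2 as a whole. It was still higher than in the stretch of 73.2% of genes. Among the 268 genes with a stretch of at least 1 Mb, 97.4% had fewer peaks and 96.6% a lower density. The median stretch held 0 peaks, both among these 268 genes and among all 19551. A stretch shared by neighbouring genes was counted for each of them. The genes ranked next to Gata3 by peaks in the stretch were Cryba4, Diras2, Gadd45g, Lpin1 and Phlda1 with 16 peaks each and AI480653 with 15, in stretches of 352.8 to 718.8 kb. Diras2 and Gadd45g are neighbours that share 1 stretch.

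**Figure D3:**
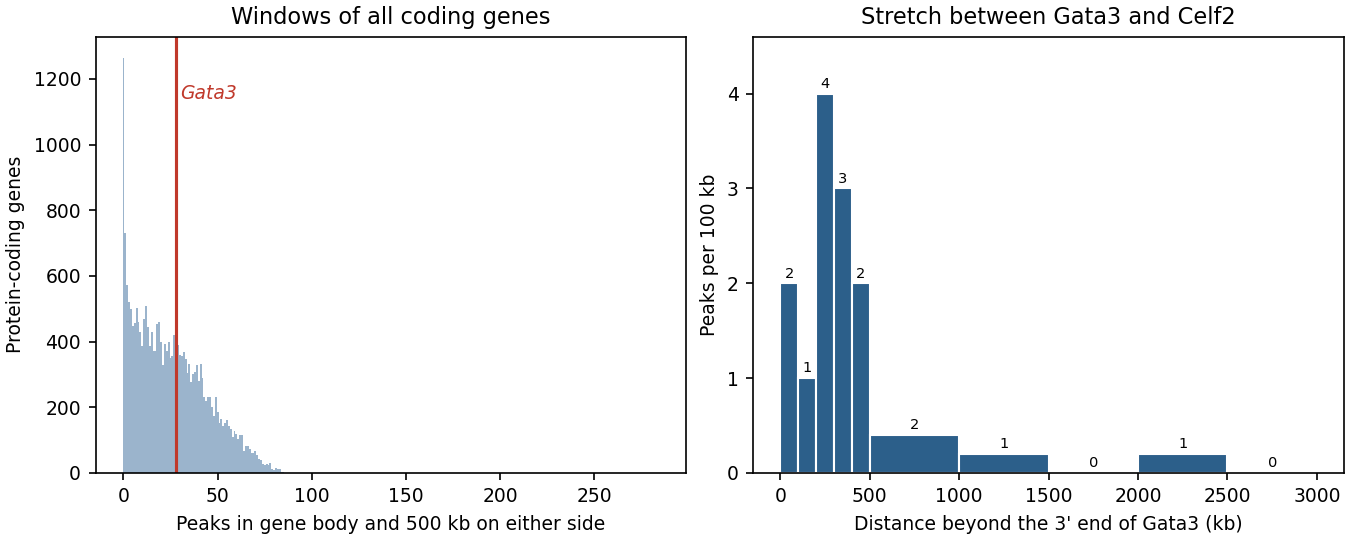
The left panel shows how many protein-coding genes (y axis) have a given number of peaks in their body and 500 kb on either side (x axis), with Gata3 marked by a red line at 28. The right panel shows peaks per 100 kb (y axis) in bins of distance beyond the 3′ end of Gata3 (kb, x axis), with the number of peaks above each bar. The bin from 200 to 300 kb holds 4 peaks, the most of any bin.

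Along this stretch the peaks were unevenly spaced. The first 100 kb beyond the 3′ end held 2 peaks, the next 100 kb held 1, the bin from 200 to 300 kb held 4, and the bins to 400 and 500 kb held 3 and 2. Over the rest of the stretch to Celf2, more than 2000 kb, only 4 peaks followed. If the stretch was ended at the next gene of any type, Gm13218, it held 3 peaks, and 95.8% of genes had fewer.

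On the 5′ side, 96086 bp without a peak followed the distal start of Gata3, and no peak lay between Gata3 and Taf3, 24.5 kb away. Taf3, which encodes a subunit of the general transcription factor TFIID, had a peak of 950 bp at its start and 5 more in its introns, at -107.7 to -155.3 kb, of 382 to 725 bp. Farther upstream, a single peak of 1096 bp (chr2:10001509-10002604) marked the opposing starts of Atp5c1, a subunit of mitochondrial ATP synthase, and Kin. A peak of 826 bp lay at the start of Sfmbt2, a Polycomb-type gene. No peak was found at the starts or in the bodies of Itih2 and Itih5, which encode secreted inter-alpha-trypsin inhibitor chains. The longest gap of the locus, 171430 bp, ran across Itih5 from a peak of 415 bp (chr2:10064342-10064756) to one of 987 bp (chr2:10236187-10237173). The widest peak of the window (chr2:10265020-10266123, 1104 bp) was intronic to the non-coding gene Gm13261.

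The 3′ and 5′ sides had 12 and 11 peaks (ratio 1.09, 95% counting interval 0.441 to 2.73), but with flanks of 250 kb in place of 500 kb the ratio was 0.429, with more peaks on the 5′ side. On the 3′ side none was a promoter peak or CpG-rich, and the median width was 484 bp. On the 5′ side 3 were CpG-rich promoter peaks of other genes, and the median width was 725 bp. Covered DNA came to 6659 bp on the 3′ side and 7694 bp on the 5′ side.

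Short words were counted on both strands in the central 200 bp of each peak, so that widths did not matter, and the same was done for all 32527 peaks. The words searched for GATA factors were AGATAA with the variant AGATAG, followed by TGATAA with the variant TGATAG. RUNX factors were represented by TGTGGT, TCF1/LEF1 by CTTTGAA with its variant CTTTGAT, ETS factors by AGGAAG with the other form CCGGAA, and MYB by AACTGA with the other form AACGGA. The E-box word CAGCTG was kept apart from the E-box word CAGGTG, and TGGGAA, the word GGGCGG of SP factors and the core of the CTCF motif made up the rest. Of 163 words in the 28 peaks, only 3 pairs overlapped. A GATA word was present in 8 of 28 peaks (28.6%, 15.3 to 47.1%), compared with 19.5% of all peaks. Over the 21 peaks away from start sites the share was 33.3%, compared with 24.8% of such peaks in the list. ETS words were the most common, in 42.9% of the locus and 39.5% of the list. TGGGAA was present in 21.4% of the locus (15.3% of the list) and RUNX in 17.9% (19.9%). Shares below the list were seen for CAGGTG (14.3 and 23.3%), SP (10.7 and 23.4%) and MYB (3.57 and 12.9%). For each of the 10 groups, the share of all peaks lay inside the interval of the locus.

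**Figure D4:**
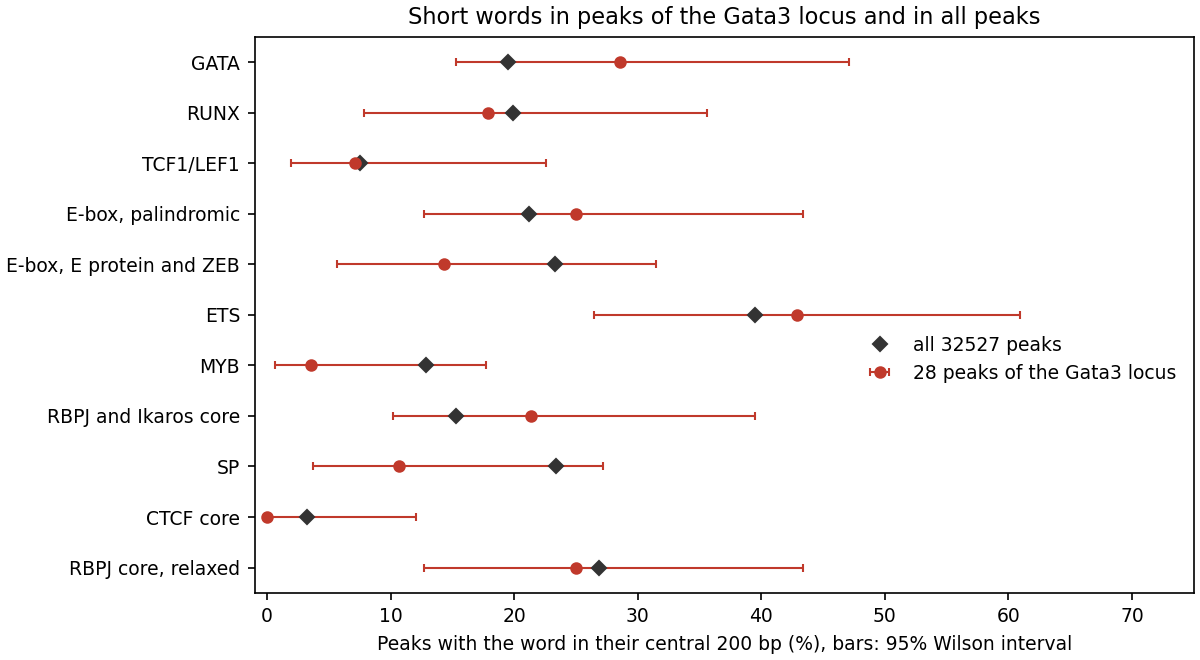
For each word group (y axis), the red point gives the percentage of the 28 peaks of the locus with the word in the central 200 bp (x axis), with a bar for the Wilson 95% interval, and the black diamond gives the percentage of all 32527 peaks. The palindromic E-box is CAGCTG, the other E-box is CAGGTG, the RBPJ and Ikaros core is TGGGAA, and its relaxed form also takes in the word TGAGAA. Each diamond lies within the bar of its row.

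In whole peaks, GATA words were present in 8 of 12 peaks on the 3′ side, 1 of 5 in the gene body and 6 of 11 on the 5′ side. RUNX words were present in 5, 0 and 4 peaks and ETS words in 9, 4 and 9 peaks in the same order. SP words were present in 2, 3 and 2 peaks. Over the whole width of all 32527 peaks, 48.9% held a GATA word, 41.4% a RUNX word, 71% an ETS word and 38.7% an SP word. Differences between the sides were not tested, and the gene body has only 5 peaks. The CTCF core was found in 0 of 28 peaks, which allows a share of up to 12.1% (Wilson), and in 5.52% of all peaks. No second copy of any of the 28 peaks was found in mm9 at 95% identity or more.

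Gata3 was then set beside the other GATA genes. With 4 peaks at start sites, Gata3 had more than 99.8% of protein-coding genes, whose median was 0, although the count grows with the number of annotated starts. Gata1, the erythroid member, had a single narrow peak (461 bp) at its start. Gata2, which acts in stem and progenitor cells, and Gata4, Gata5 and Gata6, which act in heart and endoderm, had no peak at a start, and only Gata5 had a peak in its body. Their windows nevertheless held 8 to 42 peaks. Thus, Gata3 had the most start-site peaks of the family, but not the most peaks in its window.

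Among 14 other regulators of early T cells, 13 had a peak at a start, and Zbtb7b, which directs the CD4 lineage, had none. Over all protein-coding genes the share with a start-site peak was 47%. Tcf7, Runx3 and Ikzf1 had 3 start peaks each, the closest to the 4 of Gata3. Larger genes such as Runx1 (12 peaks), Ikzf1 (10) and Notch1 (10) had more peaks in the body than Gata3 (5). In the stretch downstream, Bcl11b, which commits cells to the T lineage, had 19 peaks in 421 kb, compared with 16 in 2776 kb for Gata3. Ets1 had 6 in 1730 kb, and the other regulators with a value had 0 to 3.

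**Figure D5:**
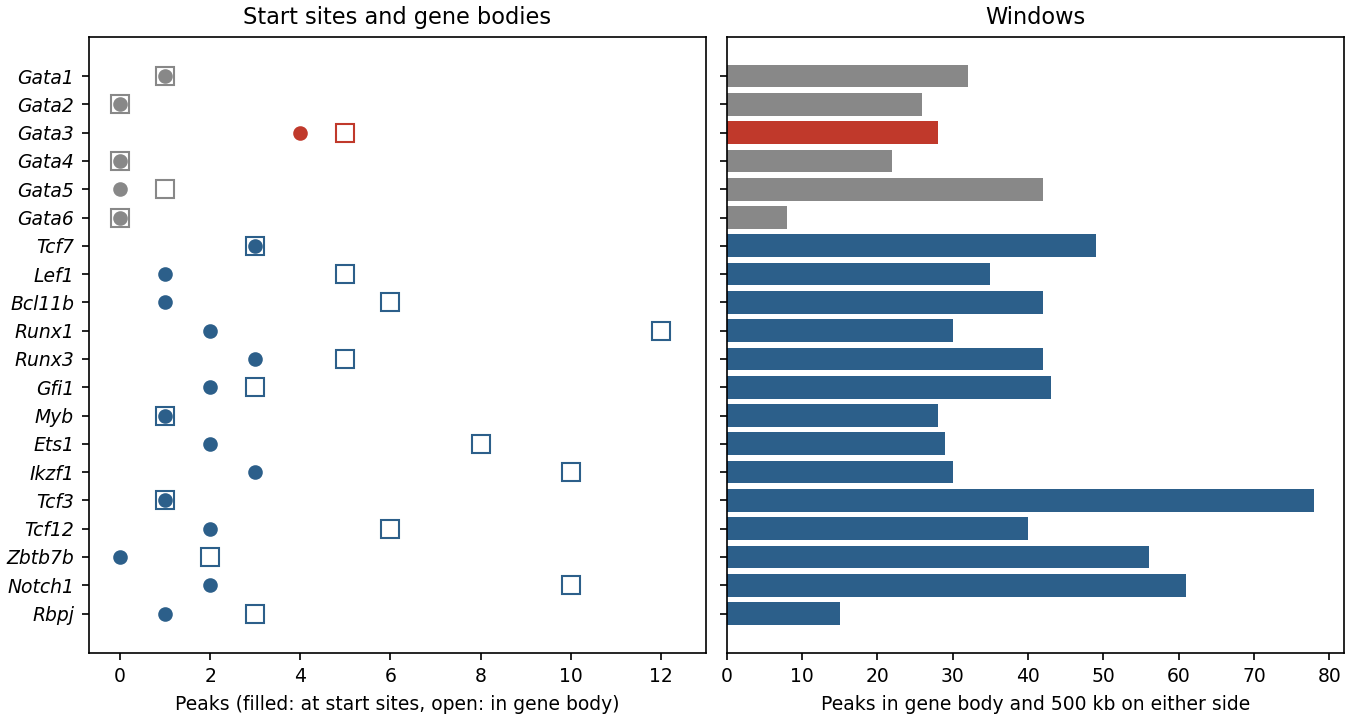
The left panel gives, for the 6 GATA genes and 14 regulators of early T cells (y axis), the number of peaks within 1 kb of start sites (filled circles) and in the gene body (open squares). The right panel gives the number of peaks in the body and 500 kb on either side. Gata3 (red) has 4 start peaks, more than any other gene shown, while its window of 28 peaks is among the smaller ones.

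The labelled cell type was compared with start-site peaks of marker genes. Of 11 T-lineage genes 10 had a peak at a start (Cd3d had none), while 0 of 6 B-lineage genes and 1 of 5 myeloid genes (Spi1) did. Of 5 erythroid and megakaryocyte genes, 4 had one (Gata1, Klf1, Epor and Itga2b), and Hbb-b1 had none. Over all protein-coding genes 10499 of 22350 (47%) had a start-site peak. The part of such markers in the peaks at Gata3 was not tested, and a peak at a start does not measure expression.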

How the data were processed

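ATAC-Seq was done with a commercial kit on 6 libraries of Beko cells (3 DMSO, 3 GSI), grouped by their labels. As the methods describe, the authors trimmed the reads, aligned them to mm9 with HISAT2 (version 2.2.1 in the submitters' processing notes) with 1 alignment retained for every read, discarded duplicates by Picard, ran MACS2 on every library with no input control, kept the peaks present in 3 of 6 libraries and dropped blacklisted regions. Each deposited peak has a start and an end in bp, with a score of 0 throughout, in 1 list for both treatments. A peak present in 1 treatment alone passes this rule, and keeping 1 alignment places reads from repeats in 1 of several equal sites. The transposase offset is not stated in the sources used here, and read depth was not used here. It bears on which peaks are found and how wide they are, and this was not tested.

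Starts counted from 0 are printed counted from 1. The assembly NCBIM37 (mm9) and GENCODE vM1 were used. RefSeq, whose tables use another build, served for current symbols and to compare the promoter letters only. Software was numpy 2.4.6 and scipy 1.17.1 under Python 3.11.15, and figures were drawn by matplotlib 3.10.9. Copies were searched with minimap2 2.31 (at least 80% of the length, 95% identity). Counts of peaks in windows and stretches, and the search for words, were tested on simulated data. Ranks were not tested in this way. No test between samples could be made. Shares have Wilson intervals, medians intervals from order statistics.

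Genes named are Gata3, those meeting or bounding the window, fixed lists of GATA genes, T-cell regulators and lineage markers, and the 3 genes ranked above and below Gata3 by peaks downstream. Peaks named are those of the gene and its starts, the far region, the 5 widest, the longest gap, the longest runs (4 tied) and the 3 with most GATA words. The peaks at 50.7, 76.9, 196.7 and 358.4 kb and their words, and those in Taf3 and at Sfmbt2, were picked once their values had been seen. The sequence of far peak 2 is not reported here. Members and lists were chosen with earlier results of these data known. Alternatives were other flanks, widths, joining, distances, word windows, thresholds and origins.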

Additional observations from a re-analysis of the deposited data

How the results depend on the processing

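Of 69 alternatives, 45 left a count within 1.5 times, or a median, ratio or share within the 95% interval, of the value reported, and 24 did not. These intervals are narrow for shares of all genes and wide for shares of 28 peaks, and the cause of a move was not tested unless the setting itself fixes it. With flanks of 250 kb the locus held 15 peaks, the ratio of the 3′ to the 5′ side was 0.429, and 57.3% of genes had fewer peaks. With flanks of 1 Mb 40.5% had fewer. Keeping peaks of at least 500 bp left 15 peaks with a median of 827 bp, 3 of them in the gene body, and 55% of genes had fewer. Joining peaks within 1 kb left 3 in the body and made the far pair 1 peak. Counting only peaks over 1 kb from any start, 70.8% of genes had fewer. Downstream, 95.8% of genes had fewer when a gene of any type ended the stretch, and 73.2% by peaks per Mb. The far region is the value that depends most on its definition, since the pair lies near its edge: within 10 kb of the stated distance from the 5′ end it held 0 peaks, measured from the 3′ end it held 4, and measured from the Gata3-001 start, an alternative added after the data were seen, it held 3, or 2 within 10 kb. A stricter CpG threshold kept 3 CpG-rich peaks. Word shares stayed within their wide intervals in 23 of 31 alternatives, which still allowed TCF1/LEF1 to go from 7.14% to 21.4% and SP from 10.7% to 25% in whole peaks, and the other 8 were higher in longer windows. No paired analysis was possible because peaks carry no value for a single library, and leaving out a replicate could not be run. The list gives neither signal nor treatment, so a weak peak weighs as much as a strong one, and an interval that just missed 3 libraries is absent.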

Other observations

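Beyond the window, 4 more peaks lay in the stretch between Gata3 and Celf2, at 740.1, 901.4, 1103 and 2452 kb from the 3′ end of Gata3. They were 446 to 694 bp wide and none was a promoter peak. In whole peaks, 3 held a GATA word, compared with 52.2% of all peaks away from start sites. The nearest of them (chr2:9038351-9038801, 451 bp) held 5 GATA words, more than any of the 28 peaks of the window, where the most was 3. This peak was singled out after its count was seen. The share of all peaks with as many GATA words is not given here. By nearest start of a protein-coding gene, 19 peaks of the list belonged to Gata3, compared with a median of 1 per gene, and 99.9% of 22208 genes had fewer. The count depends on how far away other coding genes lie, and the stretch to Celf2 is long. An assignment by nearest start says nothing about which gene a peak acts on.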
